A study of Mus musculus with 14 samples.

Results

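Aminoacyl-tRNA synthetases, the enzymes that join amino acids to their transfer RNAs, were followed as a family of 37 genes in C2C12 cells, an immortalised mouse myoblast line that forms myotubes when serum is lowered. The genes were chosen by symbol and family membership, without use of their measured values, from a table of 49671 genes, and all 37 passed the filter on low counts. They comprised 18 genes for cytosolic enzymes, 2 genes (Gars and Kars) whose products serve both the cytosol and the mitochondrion, 16 genes for mitochondrial enzymes, which end in 2, and Tarsl2, which encodes a threonyl-tRNA synthetase-like protein. Poly(A) RNA was sequenced in 14 libraries, 2 in each of 7 groups. At day 0 the cells stood in growth medium with 20% fetal calf serum (FCS). DM1 replaced this by 2% horse serum (HS) alone. DM2 combined 10% FCS with an adipogenic cocktail, made of insulin at 1 µg/ml, IBMX (an inhibitor of phosphodiesterases) at 0.5 mM, dexamethasone (a glucocorticoid) at 0.5 µM and rosiglitazone (which activates PPAR-gamma) at 2 µM. DM3 supplied that cocktail in the 2% HS of DM1, and cells in each medium were collected on days 2 and 7. DM3 against DM1 therefore tests the cocktail in low horse serum, whereas DM3 and DM2 hold the same cocktail but differ in both the source and the percentage of serum. All groups came from the same cell line, and the labels give the replicates numbers without calling them separate cultures. The spread behind each p-value is then that between libraries and may be only technical.

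Cytosolic synthetases charge the transfer RNAs used to translate nuclear messenger RNAs, and mitochondrial synthetases, also encoded in the nucleus, charge those used to translate the few messenger RNAs of the mitochondrial genome. In mammals several cytosolic synthetases are held with the scaffold proteins Aimp1, Aimp2 and Eef1e1 in a multisynthetase complex. Uncharged transfer RNA activates the kinase Gcn2 (gene Eif2ak4), which phosphorylates the initiation factor eIF2 and thereby favours translation of Atf4, a transcription factor that activates genes of amino acid synthesis and uptake and many cytosolic synthetase genes. Myoblasts that fuse into myotubes leave the cell cycle and build contractile proteins.

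Promoter windows, from 250 bases before to 50 bases after the annotated start, were found for 27 of the 37 genes in RefSeq for build GRCm38.p6. They were searched on both strands for TGATGNAA, the core letters of the element that Atf4 is known to bind together with C/EBP proteins. The letters stood in the windows of 5 of 12 cytosolic or dual genes that were matched and of 0 of 14 mitochondrial genes, against 4.51% of all 27025 genes in the RefSeq table. These 5 windows are shown because the motif divides the matched cytosolic genes into a pair of sets whose values are given further on. Each runs 5′ to 3′ on the strand of the gene, with the match, read on either strand, in capitals. The windows are Aars at chr8:111033592-111033891 (plus strand), Gars at chr6:55037751-55038050 (plus), Iars at chr13:49681880-49682179 (plus), Tars at chr15:11399609-11399908 (minus) and Yars at chr4:129189653-129189952 (plus).
Aars: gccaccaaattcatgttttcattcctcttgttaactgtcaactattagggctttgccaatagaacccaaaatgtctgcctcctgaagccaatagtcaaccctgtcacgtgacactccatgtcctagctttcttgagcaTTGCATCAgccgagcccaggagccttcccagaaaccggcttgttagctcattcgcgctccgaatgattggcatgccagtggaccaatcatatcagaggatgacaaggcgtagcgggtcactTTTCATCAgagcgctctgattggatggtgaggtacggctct
Gars: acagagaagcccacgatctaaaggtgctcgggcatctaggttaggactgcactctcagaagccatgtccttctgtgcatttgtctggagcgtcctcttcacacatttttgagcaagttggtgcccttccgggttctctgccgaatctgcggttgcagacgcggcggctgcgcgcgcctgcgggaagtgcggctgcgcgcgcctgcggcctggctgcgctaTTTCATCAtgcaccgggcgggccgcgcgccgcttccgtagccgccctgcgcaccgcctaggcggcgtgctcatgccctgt
Iars: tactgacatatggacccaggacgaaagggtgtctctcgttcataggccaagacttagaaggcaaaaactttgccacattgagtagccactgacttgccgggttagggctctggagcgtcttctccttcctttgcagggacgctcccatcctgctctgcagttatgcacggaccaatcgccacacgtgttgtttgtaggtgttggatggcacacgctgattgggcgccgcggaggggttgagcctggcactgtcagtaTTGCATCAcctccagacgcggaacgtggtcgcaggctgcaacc
Tars: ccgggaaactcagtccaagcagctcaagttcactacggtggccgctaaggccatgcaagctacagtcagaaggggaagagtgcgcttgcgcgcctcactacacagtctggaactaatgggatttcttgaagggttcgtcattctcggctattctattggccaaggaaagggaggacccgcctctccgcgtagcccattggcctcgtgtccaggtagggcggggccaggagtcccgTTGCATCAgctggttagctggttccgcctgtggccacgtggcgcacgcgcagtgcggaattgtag
Yars: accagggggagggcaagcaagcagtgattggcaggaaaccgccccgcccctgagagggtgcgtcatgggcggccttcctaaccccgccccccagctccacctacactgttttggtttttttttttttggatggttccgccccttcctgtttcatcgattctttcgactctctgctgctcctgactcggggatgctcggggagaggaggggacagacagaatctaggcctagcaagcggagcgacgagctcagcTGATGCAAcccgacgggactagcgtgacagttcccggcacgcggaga
Aars held 2 matches, at 112 bases before and 10 bases after the start. The match in Gars began 30 bases before the start, that in Tars 15 bases before it, and those in Iars and Yars 8 and 4 bases after it. The letters CACGTG, which the transcription factor Myc can bind with Max, stood in the windows of Aars, Iars, Tars, Farsb and Ears2, and in 8.09% of all genes' windows. A match describes letters in a window and not a site that a factor was seen to bind.

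Library totals ran from 21907617 to 29784885 expected counts, with 17750 to 21111 genes detected. The muscle regulator Myog reached 1110 and 994 CPM in DM3 at day 7, against 1.74 and 1.87 CPM at day 0. Myog had 32.0 and 32.2 CPM in DM2 at day 7 and 53.5 and 40.8 CPM in DM1. Of 7 myogenic markers tested, 6 rose and 1 fell at day 7 against day 0 in DM3 and likewise in DM1. In DM2 5 rose and 2 fell (Myod1 and Des). Myod1 fell from 146 and 128 CPM at day 0 to 72.8 and 64.6 CPM in DM3 and 16.1 and 20.4 CPM in DM2. Of 8 adipocyte markers 4 were high enough to test, and 3 of these rose and 1 fell in DM2 at day 7 against day 0. The fatty acid carrier Fabp4 had 7.37 and 6.11 CPM there, against 0.488 and 0.341 CPM at day 0, and the lipid droplet protein gene Plin1 had 0.978 and 0.856 CPM, against 0.0349 and 0.0341 CPM. Cebpa rose in that comparison (1.39) and Pparg fell (-1.08). Rises were also called in the other media at day 7 against day 0, with 2 of the 4 in DM1 and 2 in DM3, where 1 fell. Of all genes tested, 53.5%, 55.4% and 59% were called at day 7 in DM1, DM2 and DM3. Cebpa had 7.34 and 5.48 CPM in DM2 at day 7, below 20.0 and 18.3 CPM in DM1 and 24.5 and 22.7 CPM in DM3. Fabp4 already had 4.69 and 3.93 CPM in DM2 at day 2. Of the 4 that were not tested, Lep was at 0 in all libraries, and Adipoq had at most 0.339 CPM, reached in DM2 at day 7. Cidec had 0.376 and 0.700 CPM in DM2 at day 7. The 3 marker rises against day 0 stood beside those of the synthetase genes in DM2 at day 7, and their part in them was not tested. None of 5 leukocyte markers was high enough to test, and the highest level among them was 0.338 CPM. In 3 libraries (day 0 replicate 1, DM1 day 2 replicate 1 and DM3 day 2 replicate 2) processed pseudogenes took a share of counts more than 1.5 times lower than in the other library of the group, within a range of 0.584% to 3.86% over all 14.

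The cytosolic synthetase genes stood at higher levels than the mitochondrial ones. Levels are given in CPM, that is, counts per library total of 1000000 with TMM factors applied. Per kilobase of exon, the median library level of a cytosolic or dual gene lay between 13.2 and 107 CPM (median 30.6 over 20 genes), and that of a mitochondrial gene other than Lars2 between 1.22 and 9.41 CPM (median 2.32 over 15 genes). Tarsl2 stood at 2.50 CPM per kilobase, among the mitochondrial levels. Lars2 is left out of sums and pairs and is described last, beside a gene over ribosomal RNA whose counts moved with it.

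The summed level of the 20 cytosolic or dual genes was 5208 and 4842 CPM at day 0. In DM1 the sum was 3196 and 3197 CPM at day 2 and 4249 and 3886 CPM at day 7. In DM2 it was 3113 and 2921 CPM at day 2 and 6568 and 6736 CPM at day 7. In DM3 it was 2500 and 2627 CPM at day 2 and 3305 and 3369 CPM at day 7. Both libraries of DM2 at day 7 lay above all others, and the 6 libraries of day 2 lay below every library of day 0 and of day 7. The second order turned with scaling: on library totals alone the mean sum in DM3 at day 7 was 2983 CPM, below the means at day 2 of 3433 CPM in DM1 and 3189 CPM in DM2. The sum of the 15 mitochondrial genes moved over a narrower range, with group means between 257 CPM in DM1 at day 7 and 333 CPM at day 0. Relative to the cytosolic sum it came to 6.63% ± 0.04 at day 0 and was highest in DM3 at day 2, at 11.6% ± 0.2, and lowest in DM2 at day 7, at 4.51% ± 0.16 (SD, n = 2 each). In bulk RNA, fewer cells that express a gene and less of its RNA per cell cannot be told apart.

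**Figure D1:**
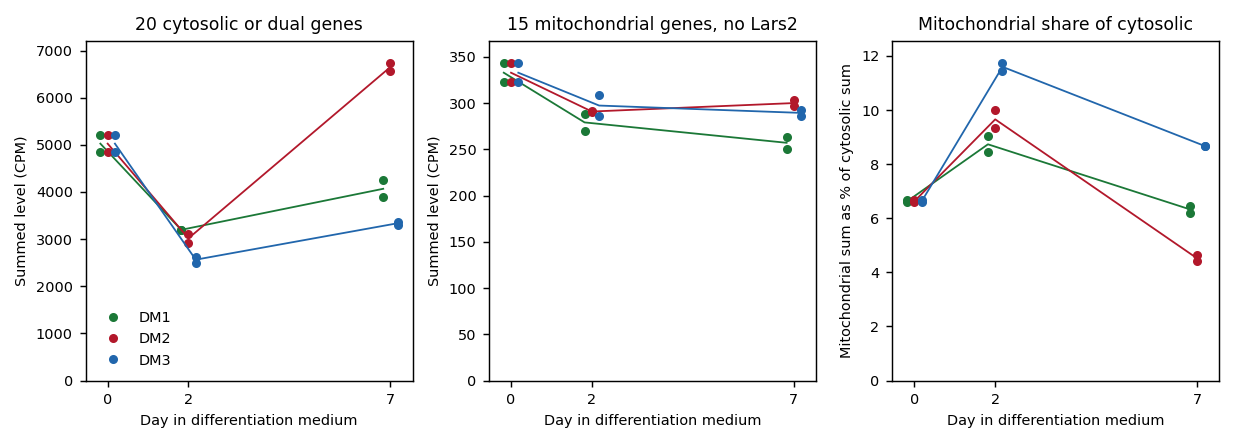
Summed CPM of the 20 cytosolic or dual genes (left), of 15 mitochondrial genes (middle) and the mitochondrial sum as a percentage of the cytosolic sum (right), by day in each medium; points are libraries, lines join group means, and the day 0 libraries are repeated for each medium. The cytosolic sum reached 6652 CPM on average in DM2 at day 7 and lay between 2564 and 3197 CPM in the 3 media at day 2.

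At day 2 nearly all cytosolic synthetase genes stood below day 0 in all 3 media. A gene counts as called when its Benjamini-Hochberg adjusted p over 15973 genes is under 0.05. Of the 37 members, 25 fell in DM1 and none rose, where 29.7% of all genes tested were called, 15.2% higher and 14.6% lower. In DM2 24 fell and 3 rose, with 49.7% of genes called, 23.5% higher and 26.2% lower. In DM3 25 fell and 1 rose, with 50.9% called, 25.5% higher and 25.4% lower. All 6 comparisons with day 0 share its 2 libraries. Among the 20 cytosolic or dual genes 18 fell in DM1, 17 fell and 1 rose in DM2, and 18 fell in DM3, with a median log2 fold change of -0.65 in DM1, -0.82 in DM2 and -1.0 in DM3. The median over all genes tested was within 0.10 of 0 in every comparison. Without the 3 libraries of low pseudogene share, 16 members were called in DM1 at day 2.

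Nars, the asparaginyl-tRNA synthetase gene, had 138 and 133 CPM in DM3, 213 and 192 CPM in DM2 and 233 and 229 CPM in DM1 at day 2, against 407 and 398 CPM at day 0. Its log2 fold change in DM3 was -1.57 ± 0.10 (SE, adjusted p = 9.03e-08), a level 2.97-fold lower than at day 0. Each medium lay below day 0 with no overlap, and DM3 lay below DM2 and DM1. Iars, for isoleucine, had 86.8 and 95.5 CPM in DM3, 93.4 and 107 CPM in DM2 and 164 and 173 CPM in DM1, against 270 and 263 CPM at day 0. Its fall was -1.55 ± 0.09 in DM3 (adjusted p = 6.17e-08) and -1.41 ± 0.09 in DM2 (adjusted p = 2.09e-07). In DM1 the largest fall among cytosolic genes was that of Tars, the threonyl-tRNA synthetase gene, with 168 and 174 CPM, against 372 and 344 CPM at day 0 (-1.07 ± 0.08, adjusted p = 3.42e-06). Aars for alanine and Cars for cysteine fell by 1.48 and 1.47 on the log2 scale in DM3, and Gars for glycine fell by 1.37.

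Dars, for aspartate, and Qars, for glutamine, both members of the multisynthetase complex, were the 2 cytosolic genes not called lower in any medium at day 2. Dars had 165 and 143 CPM in DM3, 165 and 159 CPM in DM2 and 135 and 135 CPM in DM1 at day 2, against 137 and 134 CPM at day 0. It was called higher in DM2 (0.26 ± 0.09, adjusted p = 0.0393), and this call was lost without any of the 4 libraries compared: the value was 0.27 without day 0 replicate 1, 0.24 without day 0 replicate 2, 0.18 without DM2 replicate 1 and 0.28 without DM2 replicate 2. Qars had 139 and 144 CPM in DM3, 145 and 138 CPM in DM2 and 109 and 111 CPM in DM1, against 133 and 118 CPM at day 0, and was called in none of the 3 comparisons.

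**Figure D2:**
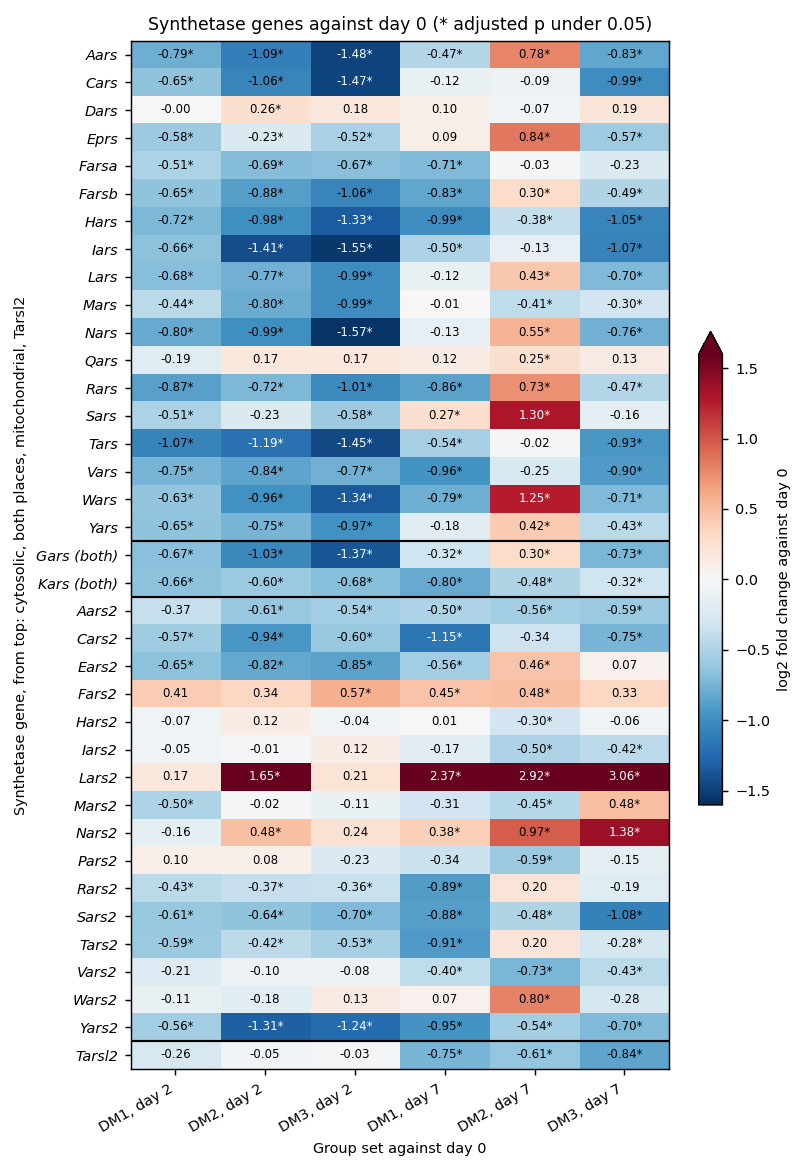
Log2 fold change of each of the 37 genes in 6 groups (columns, DM1 to DM3 at day 2 and at day 7) against day 0; rows are cytosolic, dual and mitochondrial genes and Tarsl2, stars mark an adjusted p under 0.05, and colours end at the scale's limits. The day 2 columns are mostly blue for the cytosolic genes, and the column of DM2 at day 7 holds 11 called rises among the 20 cytosolic or dual genes.

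At day 7 the media had parted. In DM2 16 members rose and 12 fell against day 0, where 55.4% of genes were called, 24.5% higher and 30.9% lower. In DM3 3 rose and 24 fell, with 59% of genes called, 28.9% higher and 30.1% lower. In DM1 4 rose and 20 fell, with 53.5% called, 27.7% higher and 25.8% lower. Among the 20 cytosolic or dual genes 11 rose and 3 fell in DM2 (median 0.28), 16 fell and none rose in DM3 (median -0.63), and 11 fell and 1 rose in DM1 (median -0.39). The balance in DM2 depended on scaling. With library totals alone in place of TMM, which put the median log2 fold change of all genes there at -0.26, 6 cytosolic genes rose (Aars, Eprs, Nars, Rars, Sars and Wars) and 9 fell, and over all members 9 rose and 19 fell.

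Sars, the seryl-tRNA synthetase gene, had 789 and 878 CPM in DM2 at day 7, against 353 and 326 CPM at day 0, a rise of 1.30 ± 0.10 on the log2 scale (2.46-fold, adjusted p = 5.08e-07). Wars, for tryptophan, had 332 and 363 CPM in DM2, against 141 and 150 CPM at day 0 (1.25 ± 0.11, adjusted p = 1.07e-06). In DM3 the levels of Wars were 88.1 and 89.9 CPM and in DM1 87.6 and 81.2 CPM, so that day 7 in DM2 lay above day 0, and the other media below it, with no overlap. Eprs, which encodes the joint enzyme for glutamate and proline, had 671 and 613 CPM in DM2, against 364 and 354 CPM at day 0 (0.84 ± 0.08, adjusted p = 1.64e-06). Aars had 695 and 746 CPM in DM2, against 443 and 395 CPM at day 0 (0.78 ± 0.11, adjusted p = 4.44e-05).

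Kars, for lysine, was the dual gene that fell in all 6 groups against day 0. It had 179 and 196 CPM in DM2, 210 and 208 CPM in DM3 and 151 and 148 CPM in DM1 at day 7, against 268 and 253 CPM at day 0, with log2 fold changes of -0.48, -0.32 and -0.80. Gars, the other dual gene, had 640 and 661 CPM in DM2, against 549 and 507 CPM at day 0 (0.30 ± 0.08, adjusted p = 0.00551). The Gars call was lost without day 0 replicate 2 (0.24, adjusted p = 0.0609). Mars for methionine (-0.41) and Hars for histidine (-0.38) were called lower in DM2. The Mars call was lost without day 0 replicate 1 (-0.34) or DM2 replicate 1 (-0.35), and that of Hars without day 0 replicate 1 (-0.31), DM2 replicate 1 (-0.38) or DM2 replicate 2 (-0.38).

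Lars, Farsb and Yars had a higher level in DM2 at day 7 than in the other 2 media. Lars, for leucine, had 349 and 330 CPM in DM2, 153 and 157 CPM in DM3 and 258 and 205 CPM in DM1, against 256 and 247 CPM at day 0. It rose in DM2 (0.43 ± 0.10, adjusted p = 0.00222), fell in DM3 (-0.70 ± 0.10, adjusted p = 4.82e-05) and was not called in DM1 (-0.12). Farsb, the beta subunit for phenylalanine, had 105 and 107 CPM in DM2, 63.7 and 59.1 CPM in DM3 and 48.2 and 48.4 CPM in DM1, against 87.7 and 84.4 CPM at day 0. Its fall in DM1 was -0.83 ± 0.07 (adjusted p = 1.52e-06), and it was 2.19-fold higher in DM2 than in DM1 at day 7. Yars, for tyrosine, had 244 and 259 CPM in DM2, against 201 and 174 CPM at day 0 (0.42 ± 0.10, adjusted p = 0.00332), and fell in DM3 (-0.43). The rises of Lars, Farsb and Yars in DM2 against day 0 were not called with library totals alone.

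In DM3 the largest cytosolic fall at day 7 was that of Iars, with 121 and 134 CPM, against 270 and 263 CPM at day 0 (-1.07 ± 0.09, adjusted p = 6.11e-07). Hars had 55.9 and 52.3 CPM in DM3, against 118 and 107 CPM at day 0, a log2 fold change of -1.05. In DM1 Hars had 62.2 and 50.6 CPM (-0.99 ± 0.12, adjusted p = 1.53e-05) and Vars, for valine, had 216 and 195 CPM, against 426 and 372 CPM at day 0 (-0.96). Sars was the 1 cytosolic gene called higher in DM1 at day 7 (0.27 ± 0.10, adjusted p = 0.0448). That call was lost without day 0 replicate 1 (0.33), day 0 replicate 2 (0.21) or DM1 replicate 1 (0.16).

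From day 2 to day 7 cytosolic synthetase genes rose in each medium, most in DM2. In DM2 25 members rose and 7 fell at day 7 against day 2, with 54.8% of genes called, 25.4% higher and 29.4% lower. In DM3 20 rose and 4 fell, with 47.9% called, 22.6% higher and 25.3% lower. In DM1 13 rose and 6 fell, with 34.3% called, 16.8% higher and 17.5% lower. Among the 20 cytosolic or dual genes 17 rose and 1 fell in DM2 (median 1.17), 15 rose in DM3 (median 0.48) and 11 rose in DM1 (median 0.32). With library totals alone the cytosolic counts were 16 rises and 2 falls in DM2 and 12 rises and 3 falls in DM3, where over all members 17 rose and 9 fell. In DM1 12 members were called without day 2 replicate 2 and likewise without day 7 replicate 2. Leaving out the libraries of low pseudogene share also left 12.

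Wars had 332 and 363 CPM in DM2 at day 7, against 77.4 and 72.0 CPM at day 2, which was 4.65-fold higher (2.22 ± 0.11, adjusted p = 2.1e-08). Aars had 695 and 746 CPM in DM2 at day 7, against 203 and 191 CPM at day 2 (1.87 ± 0.11, adjusted p = 4.99e-08). For both genes the lower day 7 library had more than 3 times the CPM of the higher day 2 library. Nars and Sars rose by 1.54 and 1.52 on the log2 scale in DM2, and Gars rose by 1.33. In DM3 the largest cytosolic rise was that of Nars, with 239 and 235 CPM at day 7, against 138 and 133 CPM at day 2 (0.81 ± 0.10, adjusted p = 2.6e-05). In DM1 it was that of Sars, with 436 and 380 CPM at day 7, against 239 and 238 CPM at day 2 (0.77 ± 0.10, adjusted p = 0.000109). The 1 cytosolic gene that fell in DM2 was Dars, with 138 and 121 CPM at day 7, against 165 and 159 CPM at day 2 (-0.32 ± 0.09, adjusted p = 0.0114). The Dars call was lost without DM2 day 7 replicate 2 (-0.23) or DM2 day 2 replicate 1 (-0.29).

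**Figure D3:**
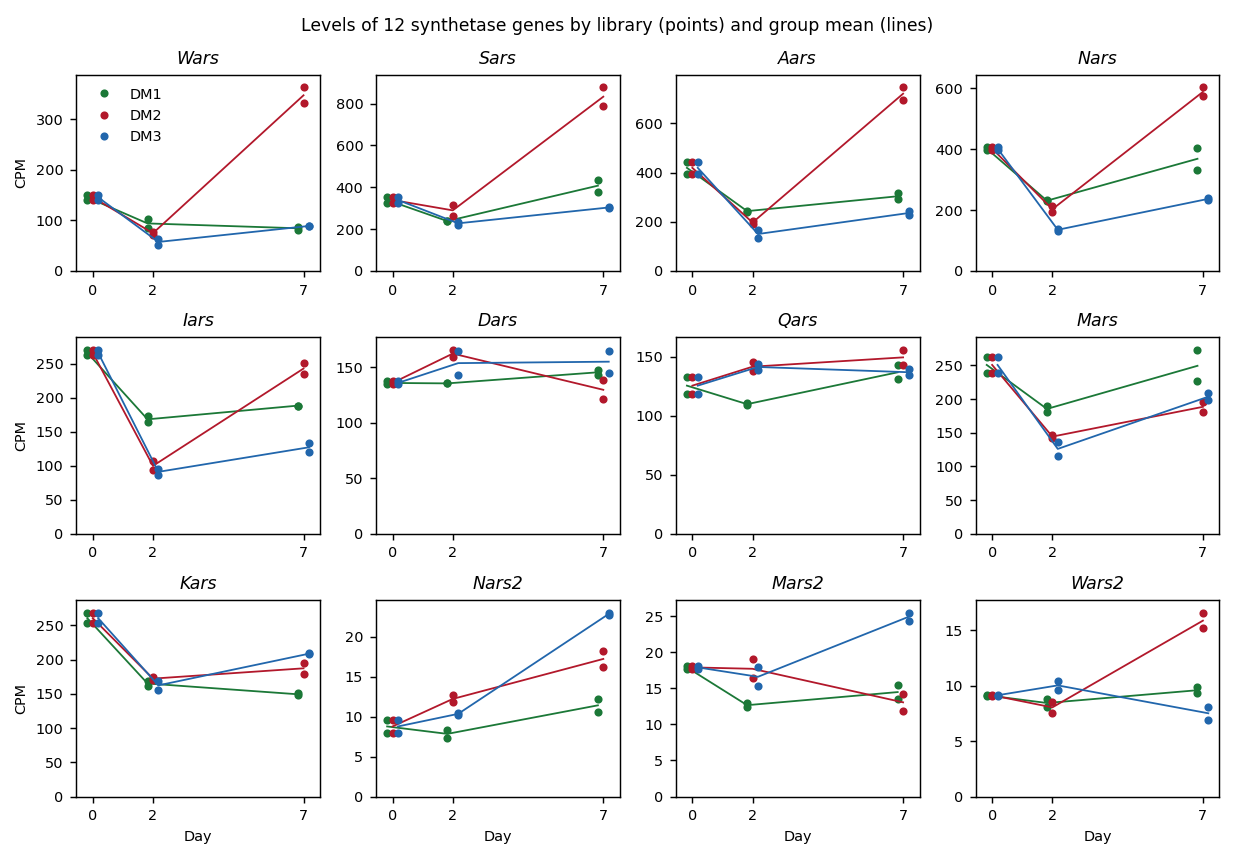
CPM of 12 synthetase genes by day in each medium; points are libraries, lines join group means, the day 0 libraries are repeated for each medium and each panel has its own axis from 0. Wars, Sars, Aars and Nars are highest in DM2 at day 7, Dars and Qars stay within a narrow band, and Nars2 and Mars2 are highest in DM3 at day 7.

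At day 2 most cytosolic genes were lower in DM3 than in DM1. In DM3 against DM1 3 members rose and 13 fell (37% of genes called, 17.6% higher and 19.4% lower), and 12 of the 20 cytosolic or dual genes fell while 1 rose. Iars had 86.8 and 95.5 CPM in DM3, against 164 and 173 CPM in DM1 (-0.89 ± 0.09, adjusted p = 1.24e-05). Cars, Nars and Wars fell by 0.82, 0.77 and 0.71. The 1 gene that rose was Qars, with 139 and 144 CPM in DM3, against 109 and 111 CPM in DM1 (0.36 ± 0.08, adjusted p = 0.0042). With library totals alone 1 member rose and 14 fell. Leaving out the libraries of low pseudogene share left 10 called.

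In DM2 against DM1 at day 2 7 members rose and 8 fell (39.4% called, 17.5% higher and 21.9% lower), with a median of -0.07. Among the 20 cytosolic or dual genes 4 rose and 7 fell there, with a median of -0.15. The count over all members fell to 8 without DM1 replicate 2 and to 9 without DM2 replicate 2. In DM3 against DM2 at day 2 9 members fell and none rose (16.3% of genes called, 9.98% higher and 6.31% lower). Nars had 138 and 133 CPM in DM3, against 213 and 192 CPM in DM2 (-0.58 ± 0.10, adjusted p = 0.00158). This count was unstable, with 5 called without DM3 replicate 1, 4 without DM3 replicate 2 and 1 without DM2 replicate 1. Leaving out the libraries of low pseudogene share left 4. When only these 2 groups entered the edgeR fit, 0 members were called, 10 had an unadjusted p under 0.05, and 485 of all genes were called.

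At day 7 DM2 stood above both other media. In DM2 against DM1 23 members rose and 4 fell (57.8% of genes called, 26.5% higher and 31.4% lower), and 16 of 20 cytosolic or dual genes rose (median 0.62). Wars had 332 and 363 CPM in DM2, against 87.6 and 81.2 CPM in DM1 (2.04 ± 0.11, 4.12-fold, adjusted p = 2.75e-08). Rars, for arginine, had 279 and 285 CPM in DM2, against 97.3 and 91.0 CPM in DM1 (1.58 ± 0.08, adjusted p = 9.67e-09). Mars was the 1 cytosolic gene called lower (-0.40), a call lost without DM1 replicate 1 (-0.26) or DM2 replicate 1 (-0.35). With library totals alone 20 members rose and 8 fell.

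In DM3 against DM2 at day 7 5 members rose and 21 fell (52.7% called, 27.5% higher and 25.2% lower), and 15 of the 20 cytosolic or dual genes fell (median -0.91). Wars had 88.1 and 89.9 CPM in DM3, against 332 and 363 CPM in DM2, 3.9-fold lower (-1.96 ± 0.11, adjusted p = 3.03e-08). Eprs had 232 and 253 CPM in DM3, against 671 and 613 CPM in DM2 (-1.41 ± 0.08, adjusted p = 2.43e-08). Aars and Sars fell by 1.61 and 1.46. Dars alone among the cytosolic genes was called higher (0.26), a call lost without DM3 replicate 1 (0.16) or DM2 replicate 2 (0.17).

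In DM3 against DM1 at day 7 10 members rose and 12 fell (47.7% called, 22.7% higher and 25.1% lower), and with library totals alone 7 rose and 19 fell. Cars had 68.0 and 68.8 CPM in DM3, against 130 and 121 CPM in DM1, a fall of 0.87 on the log2 scale. Farsa, the alpha subunit for phenylalanine, had 79.3 and 75.9 CPM in DM3, against 56.9 and 54.1 CPM in DM1, a rise of 0.48. Among the 20 cytosolic or dual genes 10 fell and 4 rose in this comparison, with a median of -0.27. The change from day 2 to day 7 was itself compared between media by an interaction term. It was higher in DM3 than in DM1 for 11 members and lower for 4 (34.9% of genes called, 16.3% higher and 18.7% lower), and higher in DM3 than in DM2 for 4 members and lower for 17 (39.8% of genes called, 20% higher and 19.8% lower).

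The multisynthetase complex and the other cytosolic genes are given side by side. The 8 genes of the complex had median log2 fold changes of -0.62, -0.66 and -0.84 in DM1, DM2 and DM3 at day 2 against day 0, and the 12 cytosolic or dual genes outside it -0.66, -0.97 and -1.34. In DM2 at day 7 against day 2 the medians were 0.73 inside the complex, with 5 rises and 1 fall, and 1.18 outside it, with 12 rises. In DM1 at day 7 against day 0 they were -0.06 inside, with 3 falls, and -0.50 outside, with 8 falls and 1 rise. In DM2 against DM1 at day 2 the medians had opposite signs, 0.10 inside the complex, with 3 rises and 2 falls, and -0.21 outside it, with 1 rise and 5 falls. Of all genes tested, 54.8% were called in DM2 at day 7 against day 2 and 53.5% in DM1 at day 7 against day 0. In DM2 against DM1 at day 2 the share was 39.4%. The 3 falls among the 8 genes of the complex in DM1 at day 7 lay below its share. The difference between the genes inside and outside the complex was not tested. Of the scaffold genes, Aimp2 had 16.6 and 19.8 CPM in DM3 at day 2, against 50.1 and 43.0 CPM at day 0, a fall of 1.36 on the log2 scale. Eef1e1 fell by 1.30 there, and Aimp1 had a log2 fold change of 0.13 and was not called. In DM2 at day 7 against day 2 Eef1e1 rose by 1.44 and Aimp2 by 1.18.

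The 15 mitochondrial genes other than Lars2 moved in both directions over the comparisons. At day 2 against day 0, 7 fell in each medium, none rose in DM1 (median -0.37) and 1 rose in DM2 (median -0.18) and in DM3 (median -0.23). At day 7 against day 0, 4 rose and 8 fell in DM2, 2 rose and 7 fell in DM3, and 2 rose and 8 fell in DM1. Of all genes tested, 29.7%, 49.7% and 50.9% were called in DM1, DM2 and DM3 at day 2. At day 7 these shares were 53.5%, 55.4% and 59%. The counts of mitochondrial genes in DM2 and DM3 at day 2 and in DM3 at day 7 lay near them. Yars2, for tyrosine, was lower in all 6 groups, at 5.99 and 5.87 CPM in DM3 and 5.77 and 5.49 CPM in DM2 at day 2, against 14.4 and 13.6 CPM at day 0. Its fall in DM2 was -1.31 ± 0.12 (adjusted p = 2.27e-06), and its fall in DM3 was -1.24. Cars2, for cysteine, had 7.66 and 5.55 CPM in DM1 at day 7, against 15.8 and 13.7 CPM at day 0 (-1.15 ± 0.15, adjusted p = 3.58e-05).

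Nars2, for asparagine, went the other way. It had 23.0 and 22.7 CPM in DM3, 18.3 and 16.2 CPM in DM2 and 10.6 and 12.3 CPM in DM1 at day 7, against 7.95 and 9.60 CPM at day 0. The rise in DM3 was 1.38 ± 0.12 (2.6-fold, adjusted p = 1.18e-06) and that in DM2 0.97 ± 0.12 (adjusted p = 3.07e-05). The rise in DM1 (0.38) was lost without day 0 replicate 1 (0.25) or DM1 replicate 2 (0.27), and the rise in DM2 at day 2 (0.48) without day 0 replicate 1 (0.35) or DM2 replicate 1 (0.38). At day 7 Nars2 was 2-fold higher in DM3 than in DM1 (1.00 ± 0.12, adjusted p = 3.59e-05).

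Mars2, for methionine, had 24.4 and 25.4 CPM in DM3 at day 7, against 18.1 and 17.7 CPM at day 0 (0.48 ± 0.12, adjusted p = 0.0046), and against 14.2 and 11.9 CPM in DM2 at day 7 (0.93 ± 0.12, adjusted p = 4.2e-05). Wars2, for tryptophan, had its high point in DM2 at day 7, with 16.6 and 15.2 CPM, against 9.17 and 9.09 CPM at day 0 (0.80 ± 0.12, adjusted p = 0.000114). In DM3 at day 7 Wars2 had 6.93 and 8.09 CPM, 2.11-fold lower than in DM2. Vars2, for valine, had 19.1 and 20.4 CPM in DM2 at day 7, against 33.0 and 32.7 CPM at day 0 (-0.73 ± 0.09, adjusted p = 1.69e-05). Fars2, for phenylalanine, was called higher in DM3 at day 2 (0.57), a call lost without day 0 replicate 2 (0.47). Tarsl2 had 11.3 and 11.2 CPM in DM3, 13.4 and 13.0 CPM in DM2 and 10.5 and 13.5 CPM in DM1 at day 7, against 21.0 and 19.4 CPM at day 0, with log2 fold changes of -0.84, -0.61 and -0.75, and it was called in no medium at day 2.

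Ears2, for glutamate, fell in all 3 media at day 2 (-0.65, -0.82 and -0.85 in DM1, DM2 and DM3) and was above day 0 in DM2 at day 7, with 12.5 and 12.6 CPM, against 9.24 and 9.06 CPM (0.46 ± 0.12, adjusted p = 0.00745). That rise was not called with library totals alone. Iars2, for isoleucine, fell late, with 66.7 and 60.0 CPM in DM2 and 67.0 and 67.1 CPM in DM3 at day 7, against 92.2 and 86.9 CPM at day 0 (-0.50 and -0.42). Tars2, for threonine, and Rars2, for arginine, parted by medium at day 7. Tars2 had 54.7 and 59.6 CPM in DM2, against 27.5 and 25.4 CPM in DM1 (1.11 ± 0.11, adjusted p = 4.21e-06). Rars2 had 26.6 and 23.5 CPM in DM2, against 12.3 and 11.1 CPM in DM1 (1.09 ± 0.10, adjusted p = 2.06e-06). Sars2, for serine, had 3.63 and 4.10 CPM in DM3 at day 7, against 9.21 and 7.19 CPM at day 0, 2.12-fold lower (-1.08 ± 0.19, adjusted p = 0.000371). Hars2, for histidine, was called against day 0 only in DM2 at day 7 (-0.30), and this call was lost without any of the libraries compared (-0.34 and -0.27 without day 0 replicate 1 or 2, -0.31 and -0.30 without DM2 replicate 1 or 2).

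Set against their partners for the same amino acid, the cytosolic genes mostly stood lower at day 2 and mostly rose further between days in DM2. For 16 pairs, without Lars2 and with Eprs paired to Ears2 and Pars2 and Fars2 to both Farsa and Farsb, the log2 fold change of the cytosolic gene was the lower of the pair in 13 pairs in each medium at day 2 against day 0. In DM2 at day 7 against day 2 it was the higher in 15 of 16 pairs, with a median difference of 1.03. There 7 pairs rose together, and in 5 pairs the cytosolic gene rose while the mitochondrial gene fell. Iars had 251 and 235 CPM in DM2 at day 7, against 93.4 and 107 CPM at day 2, whereas Iars2 had 66.7 and 60.0 CPM at day 7, against 83.5 and 94.1 CPM at day 2. The exception was Ears2, for glutamate, with 12.5 and 12.6 CPM at day 7, against 5.57 and 4.77 CPM at day 2 (1.28 ± 0.13, adjusted p = 4.15e-06). In DM3 against DM2 at day 7 the cytosolic gene was the lower in all 16 pairs, with a median difference of -0.87. Pairs share Eprs and Fars2, so they are not independent, and the counts carry no test. Over the 15 mitochondrial genes the median in DM2 at day 7 against day 2 was 0.16 with TMM and -0.10 with library totals alone.

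**Figure D4:**
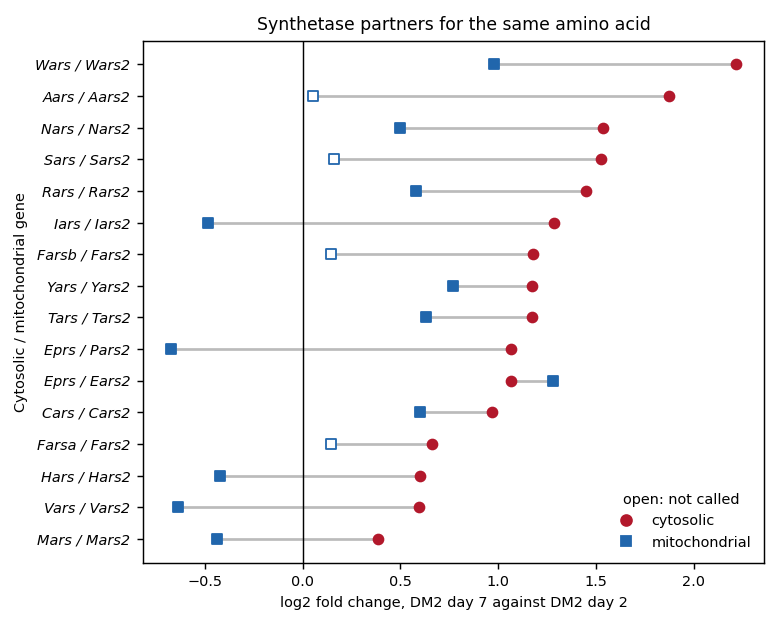
Log2 fold change in DM2 at day 7 against day 2 of the cytosolic gene (circles) and the mitochondrial gene (squares) for the same amino acid in 16 pairs; open symbols were not called. The cytosolic gene lies to the right in 15 pairs, and Eprs with Ears2 is the exception.

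Within the 12 matched cytosolic or dual genes, the 5 whose windows are printed above with TGATGNAA had a median log2 fold change of -1.45 in DM3 at day 2 against day 0 (range -1.55 to -0.97), and the 7 without it -0.58 (range -1.06 to 0.18). In DM2 at day 7 against day 2 the medians were 1.28 with the letters (range 1.17 to 1.87) and 0.66 without (range -0.32 to 1.52). In DM2 at day 7 against day 0 they were 0.30 and 0.25. Nars, Wars and Cars, which fell and rose with the 5, are among the genes with no matched window, and the difference between the sets was not tested.

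The 22 genes of an Atf4 and amino acid response list mostly fell at day 2 and mostly rose in DM2 at day 7, and had no common direction in DM1 and DM3 at day 7. At day 2 against day 0, 18 fell and 2 rose in DM3 (median -1.38), 17 fell and 4 rose in DM2 (median -0.97) and 15 fell in DM1 (median -0.92). At day 7 against day 0, 20 rose and none fell in DM2 (median 1.13), 7 rose and 11 fell in DM3 (median -0.27) and 9 rose and 7 fell in DM1 (median -0.01). Of all genes tested, 50.9%, 49.7% and 29.7% were called in DM3, DM2 and DM1 at day 2. At day 7 the shares were 55.4% in DM2, 59% in DM3 and 53.5% in DM1. Atf4 itself had 923 and 1027 CPM in DM2 at day 7, against 478 and 426 CPM at day 0 (log2 fold change 1.11) and against 237 and 190 CPM in DM2 at day 2 (2.19). Trib3, a pseudokinase gene that Atf4 is known to activate, had 204 and 222 CPM in DM2 at day 7, against 16.4 and 14.4 CPM at day 0, and Ddit3, a stress-induced transcription factor gene, had 207 and 233 CPM, against 12.2 and 11.7 CPM. Vldlr, a lipoprotein receptor gene, rose by 5.83 on the log2 scale in that comparison. Chac1, a glutathione-degrading enzyme gene, and Slc7a11, the cystine transporter gene, each fell by 3.11 in DM3 at day 2, and the mitochondrial folate enzyme genes Mthfd2 and Shmt2 fell by 2.69 and 2.60. In DM3 against DM2 at day 7, 20 of the 22 fell and none rose, where 52.7% of all genes tested were called. The list was chosen with results of these data known, and the part of Atf4 in the levels of the synthetase genes was not tested.

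Of the eIF2 kinases and phosphatase subunits, Ppp1r15a, a phosphatase subunit gene, had 254 and 264 CPM in DM2 at day 7, against 29.2 and 25.8 CPM at day 0 (3.23), and Eif2ak4, which encodes Gcn2, had 18.6 and 17.4 CPM, against 35.0 and 34.0 CPM (-0.94). Over the 6 genes of this list 3 rose and 2 fell there, where 55.4% of all genes tested were called. Myc had 194 and 200 CPM in DM2 at day 7, against 92.8 and 84.4 CPM at day 0 (1.15), and fell in DM2 and DM3 at day 2 (-0.88 and -0.70). Max rose by 0.26 in DM2 at day 7, Mycl was not called there (-0.18), and Mycn was too low to test. Of 5 cytosolic elongation factor genes tested, 4 rose in DM2 at day 7 against day 0 (median 1.18), among them Eef1b2 (1.44), Eef2 (1.30) and Eef1a1 (1.18), the carrier of charged transfer RNA to the ribosome. In DM3 at day 2 against day 0, 2 of the 5 rose and none fell, a count below the 50.9% called among all genes tested.

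On the mitochondrial side, 3 of 12 translation factor genes tested rose and 5 fell in DM2 at day 7 against day 0, and 3 rose and 7 fell in DM3 at day 2. Of all genes tested, 55.4% were called in DM2 at day 7 and 50.9% in DM3 at day 2. The glutamine amidotransferase, which completes mitochondrial charging with glutamine in place of a synthetase of its own, is encoded by Qrsl1, Gatb and Gatc. Qrsl1 fell in all 6 groups against day 0 and had 8.72 and 8.73 CPM in DM3 at day 2, against 15.4 and 15 CPM at day 0, and all 3 genes fell in DM3 at day 2 (median -0.77). Of 4 genes for clearing mischarged transfer RNA, 2 rose and 1 fell in DM2 at day 7 against day 0, with Prorsd1 at 1.41 and Dtd1 at -0.75.

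Lars2, for mitochondrial leucine, had counts that followed those of a gene over ribosomal RNA. It had 1323 and 1651 CPM in DM2, 1465 and 1801 CPM in DM3 and 914 and 1114 CPM in DM1 at day 7, against 241 and 151 CPM at day 0. The rise was 2.92 ± 0.31 in DM2 (7.58-fold), 3.06 ± 0.31 in DM3 (8.33-fold) and 2.37 in DM1. Gm42418, a gene annotated over ribosomal RNA sequence, rose by 3.01, 3.31 and 2.70 in the same order. Over the 14 libraries Lars2 ran from 4440 to 43876 expected counts, a 9.88-fold range, and Gm42418 from 38329 to 564510, a 14.7-fold range, while Lars2 came to between 6.70% and 11.6% of Gm42418 in each library. Of the 3 genes over ribosomal RNA, 2 were called higher in DM2 at day 7, but only 1, Gm42418, in DM1 and in DM3. Gm26917 had 494 and 601 CPM in DM2 at day 7, against 251 and 288 CPM at day 0. It had 214 and 263 CPM in DM1 and 297 and 297 CPM in DM3 at day 7. AY036118 stood at no more than 0.698 CPM in any library.

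The Lars2 transcript of 3894 bases in the Gencode vM21 annotation, whose coding part ends at base 2905, shares 72 bases at 98.6% identity (bases 3278 to 3349) with Gm15564, a gene looked up after the values were seen. No alignment of that Lars2 transcript to Gm42418, Gm26917 or AY036118 was found. The exons of Lars2 cover 11089 bases in all, and its other transcripts were not aligned. In 13 of 14 libraries the Lars2 count was not a whole number, which RSEM gives when it divides reads among genes. In each library the fractions of Lars2 and Gm15564 made up a whole number, to rounding. Day 0 replicate 1, for example, had 6914.49 for Lars2 and 20.51 for Gm15564. In DM3 day 2 replicate 2, where Lars2 was whole, Gm15564 stood at 0. Gm15564 held at most 336 expected counts in any library. The Iars count was also not whole in 13 of 14 libraries, and 377 of its 50-base stretches recur in Gm4849. Aars shares 1277 of 9450 such stretches with Exosc6, but its count was whole in all 14 libraries. Whether ribosomal reads make up part of the Lars2 counts was not tested. In DM3 at day 2 Lars2 was not called against day 0 (0.21). Leaving out the libraries of low pseudogene share gave a called value of 0.81 (adjusted p = 0.0318).

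**Figure D5:**
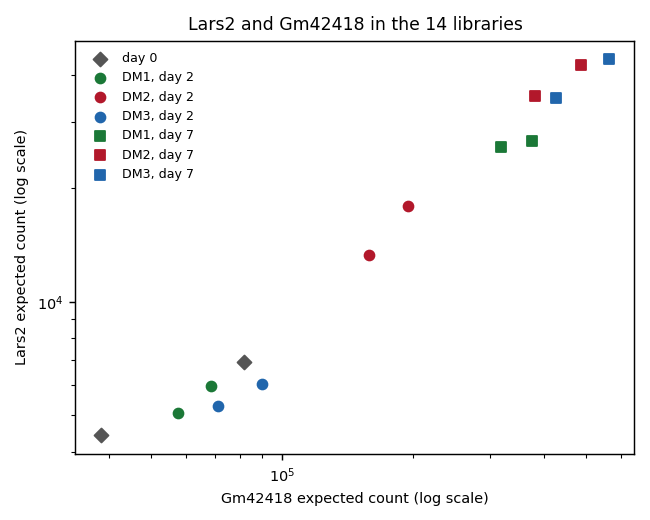
Expected counts of Lars2 against those of Gm42418 in the 14 libraries, on log axes; colours mark media and shapes mark days. The libraries lie along a single band, with the 6 of day 7 at the upper right, DM2 at day 2 in the middle and day 0, DM1 and DM3 at day 2 at the lower left.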

How the data were processed

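Per the labels' protocols, poly(A) RNA went into stranded libraries with 11 PCR cycles and was sequenced single-end at 50 bases, to a stated 25 to 40 M raw reads. Per the submitters' processing notes, STAR 2.5.1b, RSEM 1.2.31, GRCm38 (p5) and Gencode vM12 were used. The authors deposited RSEM expected counts per gene, not normalized, which are estimates that need not be whole; 0 value columns lacked a sample. Expected counts were rounded to whole numbers. In edgeR 4.0.16, run under R 4.3.3 with limma 3.58.1, filterByExpr kept 15973 genes, libraries were scaled by TMM, all 14 entered a single model of 7 groups with 7 residual degrees of freedom, and robust quasi-likelihood F tests were two-sided with Benjamini-Hochberg adjustment over all genes kept. The SE was taken as the size of the log2 change over the root of F. The script was tested on simulated data. DESeq2 1.42.0, other scalings and each library left out were alternatives. Depth limits precision for low genes such as Pars2 and Sars2.

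The members, gene lists, tests and alternatives were chosen with earlier results of these data known. All members could be named. In each comparison the values given came from called members, namely the 4 cytosolic or dual and 3 mitochondrial genes with the largest changes, those against the majority sign of their class, and Lars2, Gars, Kars and Tarsl2, and per list up to 4 called genes with the largest changes plus Atf4, Myc and Myog. Further members were named as partners, for the motif or for a matching value elsewhere. Exon lengths came from Gencode vM21 and promoter windows from RefSeq.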

Additional observations from a re-analysis of the deposited data

Results flagged for a closer look

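The change from day 2 to day 7 was compared between media by an interaction term in edgeR over all 14 libraries. Between DM3 and DM2 it differed for 21 of 37 members (39.8% of all genes tested), with 4 higher and 17 lower in DM3. The difference was -1.58 for Wars, -1.22 for Aars, -1.11 for Eprs, -1.11 for Sars and -0.69 for Gars on the log2 scale, all lower in DM3. Among mitochondrial genes it was -1.40 for Wars2, -0.74 for Cars2, -0.41 for Rars2, 1.02 for Mars2 and 1.57 for Lars2. For Gm42418, the gene over ribosomal RNA whose counts moved with Lars2, it was 1.40 and not called. The Cars2 call was lost without DM3 day 7 replicate 1 (-0.70). The Rars2 call was lost without DM3 day 2 replicate 1 (-0.37), DM3 day 7 replicate 2 (-0.35), DM2 day 7 replicate 1 (-0.32) or DM2 day 2 replicate 1 (-0.36). The Lars2 call was lost without DM3 day 7 replicate 2 (1.41), DM2 day 7 replicate 1 (1.42) or DM2 day 2 replicate 1 (1.29). With library totals alone 8 members were higher and 16 lower.

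Between DM3 and DM1 the change differed for 15 of 37 members, not far from the share of all genes tested (34.9%), with 11 higher and 4 lower in DM3. The difference was 0.79 for Wars, 0.75 for Farsb, 0.65 for Farsa and 0.51 for Kars, -0.72 for Eprs and -0.36 for Qars. Among mitochondrial genes it was 0.93 for Yars2, 0.84 for Ears2, 0.63 for Rars2, -0.60 for Wars2 and -0.42 for Iars2. With library totals alone 9 members were higher and 8 lower. The Qars call was lost without any of DM1 day 2 replicate 1 (-0.35) or 2 (-0.37), DM3 day 2 replicate 2 (-0.34), DM1 day 7 replicate 2 (-0.30) and DM3 day 7 replicate 1 (-0.34) or 2 (-0.39). The Wars2 call was lost without DM1 day 2 replicate 1 (-0.54), DM3 day 2 replicate 2 (-0.54), DM1 day 7 replicate 2 (-0.56) or DM3 day 7 replicate 1 (-0.49), and the Iars2 call without DM1 day 2 replicate 2 (-0.38) or DM3 day 2 replicate 2 (-0.36). The DM3 libraries serve in both interaction terms.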

How the results depend on the processing

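All members were recomputed under the alternatives, and the named genes called in the main fit were tallied. In this tally no log2 fold change changed sign, 1975 values kept their side of the threshold and 188 lost the call. Genes not called in the main fit were left out of the tally, and the alternatives used the same libraries. Among these values no call could therefore be gained, and a change of sign was unlikely from the start. Counts of members called stayed within 1.5 times except as follows. With only the groups compared, DM3 against DM2 at day 2 had 0 called members. Without the libraries of low pseudogene share the counts were 16 for DM1 at day 2 against day 0, 12 for DM1 at day 7 against day 2, 10 for DM3 against DM1 and 4 for DM3 against DM2 at day 2. Leaving out 1 library at a time, members called against day 0 ranged from 20 to 26 (DM1), 20 to 27 (DM2) and 23 to 26 (DM3) at day 2, and from 21 to 25, 22 to 29 and 25 to 29 at day 7. Day 7 against day 2 gave 12 to 19 (DM1), 29 to 32 (DM2) and 21 to 25 (DM3). Between media at day 2, DM3 against DM1 gave 12 to 16, DM3 against DM2 1 to 11 and DM2 against DM1 8 to 15, and at day 7 these gave 17 to 24, 20 to 26 and 23 to 28. The interactions gave 10 to 18 (DM3 and DM1) and 19 to 23 (DM3 and DM2). The mitochondrial sum as a percentage of the cytosolic sum, with Lars2 included, was 10.5 at day 0, 15.6, 29.9 and 20.5 in DM1, DM2 and DM3 at day 2, and 31.4, 26.8 and 57.6 at day 7, in place of 6.63, 8.73, 9.66, 11.6, 6.33, 4.51 and 8.68 without it. On library totals alone the cytosolic sum was 3433 CPM in DM1 and 3189 CPM in DM2 at day 2, and 5876 CPM in DM2 and 2983 CPM in DM3 at day 7, which puts DM3 at day 7 below DM1 and DM2 at day 2. The cause of these shifts was not tested. Deviations of same-numbered libraries had a median correlation of 0.005 over 21 pairs of groups, so replicate numbers did not line up across groups. The correlation ran from -0.629 to 0.518, with 2 over 0.1, so some pairs of groups deviated together or in opposite directions. With the replicate block DM3 against DM2 at day 2 had 10 called members and DM2 at day 7 against day 0 had 27.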
